A study of Mus musculus with 22 samples.

Results

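Levels and transcripts of 10 genes that encode regulators of alternative splicing in muscle were followed through the first days of muscle repair: Mbnl1, Mbnl2, Mbnl3, Celf1, Celf2, Ptbp1, Ptbp2, Rbfox2, Rbm24 and Rbm38. The genes were chosen by name and not by any value in these data. For each gene the expected counts of its transcripts were summed. All 10 were found among the 43430 genes of the tables, and all 10 were among the 15084 genes with enough counts to be tested. Mbnl3 passed that filter through the injured groups only.

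The samples were muscle stem cells (satellite cells) taken from the hindlimb of Pax7-zsgreen mice, a line in which cells that express the stem cell factor Pax7 carry a green fluorescent protein. All mice, controls included, were perfused with cold saline and then with dilute paraformaldehyde, and the fixative was quenched with glycine before the cells were collected. Muscles were uninjured, or were taken 1 or 3 days after an injection of cardiotoxin, a snake venom toxin that kills muscle fibers and leaves stem cells to repair them. Each state carried 2 zeitgeber times in the labels, ZT4 and ZT16, which count hours from lights-on. There were 3 libraries at each time for uninjured muscle and 4 at each time for day 1 and for day 3, 22 in all. For injured muscle ZT4 and ZT16 belong to the injury in the labels. Uninjured libraries carry the same times without an injury, and what the hour marks for them is not stated in the labels. Collection hour, age and sex are not given there, and neither is whether each replicate came from its own mouse, so the p-values measure only the spread between these libraries. Total expected counts ran from 5965957 to 9751536 per library. Genes with at least 1 count numbered 23089 and 20632 in day 3 ZT4 replicates 1 and 2 and 20237 in day 3 ZT16 replicate 4. The other libraries held 15812 to 18770, and the cause was not tested. Uninjured ZT16 replicates 1 and 3 stood apart from the rest before any comparison: 10 immediate early and stress genes (Fos, Egr1 and others) summed to 67600 and 57800 CPM (counts scaled to one common library total, with TMM normalization) there, against 1094 to 3739 in the other 4 uninjured libraries, 2655 to 14080 on day 1 and 1689 to 3950 on day 3. Comparisons with uninjured muscle were also computed without both, and the values are given for the 10 genes and wherever a call was lost.

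Alternative splicing joins different sets of exons of a gene into mature transcripts, and RNA-binding proteins that sit near an exon favor its inclusion or its skipping. In muscle, MBNL proteins favor adult splicing patterns and CELF proteins often act on the same exons in the opposite direction. PTBP1 represses many exons used in muscle and nerve, while RBFOX2, RBM24 and RBM38 promote muscle-type exons as myoblasts differentiate.

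Both days after injury were compared with uninjured muscle, and with each other, with the edgeR quasi-likelihood test in 1 fit of the 6 groups, taking the mean of ZT4 and ZT16 in each state. The 3 comparisons share groups and are not independent of each other. A gene was called at an adjusted p (Benjamini-Hochberg over all genes tested) below 0.05. On day 1 against uninjured muscle, 5 of the 10 regulators rose and 4 fell, while over all genes tested 34.6% rose and 40.6% fell. On day 3 against uninjured muscle, 6 rose and 2 fell, against 37.9% and 39.1% of all genes. From day 1 to day 3, 8 rose and 2 fell, against 26.7% and 28.7% of all genes. The rises against uninjured muscle include Mbnl3, which passed the count filter through the injured groups only. Its rise there is not independent of that filter. The median log2 fold change of the 10 genes was 0.08, 0.94 and 0.68 in the 3 comparisons, and that of all genes was -0.13, -0.03 and -0.02. Their median size of change without regard to sign was 0.72, 1.11 and 0.86, against 0.90, 0.96 and 0.45 for all genes. The CPM ranges of the states did not overlap for 6 of the 9 regulators called on day 1 and 7 of the 8 called on day 3. Between the days this held for 8 of the 10 called. Mbnl3 is among them each time. The share of all genes without overlap is not given here, so these counts have no background to be read against. Calls against uninjured muscle are frequent among all genes, so the counts of regulators called there lie close to the background.

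**Figure D1:**
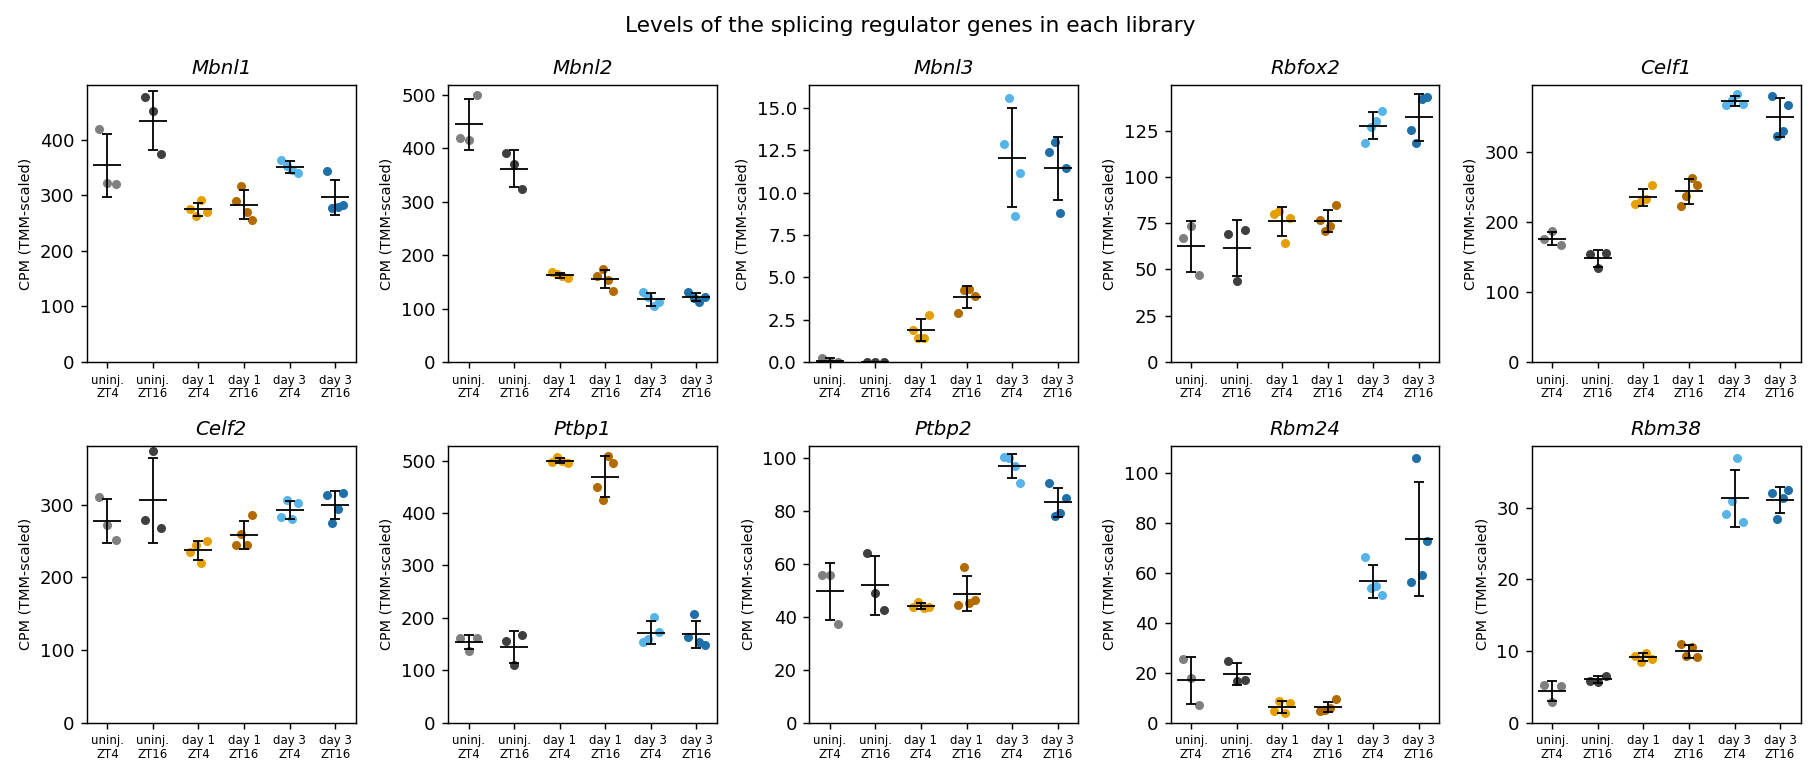
Level of each of the 10 genes (vertical axis, CPM with TMM scaling, from 0) in each of the 22 libraries, by state and zeitgeber time (horizontal axis). Points are libraries, long bars are group means and whiskers are the SD. Ptbp1 stood at 425.2 CPM or more in each day 1 library and at 207 or less elsewhere, and Mbnl2 stood at 323.5 CPM or more in each uninjured library and at 175 or less after injury.

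Mbnl2 (ENSMUSG00000022139, chr14:120275669-120431697 on GRCm38), a muscleblind-like protein, fell after injury and stayed low. Its level in uninjured muscle was 419, 416 and 499 CPM at ZT4 and 391, 371 and 324 CPM at ZT16. On day 1 it was 168, 164, 160.2 and 158 CPM at ZT4 and 161, 175, 153.9 and 133 CPM at ZT16. On day 3 it was 132, 122, 103.8 and 112.7 CPM at ZT4 and 132, 119, 113.1 and 122 CPM at ZT16. The lowest uninjured library was thus far above the highest library after injury, and the ranges of day 1 and day 3 did not overlap either. The fall was 2.52-fold on day 1 (log2 fold change -1.33 ± 0.07 SE, edgeR adjusted p = 2.57e-14) and 3.36-fold on day 3 (-1.75 ± 0.07, edgeR adjusted p = 1.28e-16). The step from day 1 to day 3 was smaller (-0.41 ± 0.07, edgeR adjusted p = 1.42e-05).

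Mbnl1 (ENSMUSG00000027763, chr3:60472830-60629750), the main muscleblind-like protein of adult muscle, moved less. Its lowest, median and highest levels were 320.5, 397 and 477 CPM in the 6 uninjured libraries, 255.5, 273 and 317 CPM in the 8 of day 1 and 277, 342 and 365 CPM in the 8 of day 3. It fell 1.41-fold on day 1 (log2 fold change -0.49 ± 0.08 SE, edgeR adjusted p = 2.63e-06), with ranges that just missed each other. On day 3 the ranges overlapped and the fall was 1.22-fold (-0.28 ± 0.08, edgeR adjusted p = 0.00162). That day 3 call was lost in edgeR without uninjured ZT4 replicate 1 (-0.09, adjusted p = 0.248) and without uninjured ZT16 replicate 2 (-0.15, adjusted p = 0.11). The rise from day 1 to day 3 (0.21 ± 0.07, edgeR adjusted p = 0.0145) was lost without day 3 ZT4 replicate 1 (edgeR adjusted p = 0.106). Each of these 2 calls was kept under 26 of 30 alternative fits.

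Mbnl3 (ENSMUSG00000036109, chrX:51117269-51206532), the family member known from fetal and regenerating muscle, was almost absent before injury. A single uninjured library, ZT4 replicate 1, held any counts (0.226 CPM), and the other 5 were at 0. On day 1 its level was 1.91, 1.42, 1.40 and 2.76 CPM at ZT4 and 2.88, 4.25, 4.32 and 3.88 CPM at ZT16. On day 3 it was 12.9, 15.6, 8.61 and 11.2 CPM at ZT4 and 12.4, 13.0, 8.79 and 11.5 CPM at ZT16. The 3 states formed 3 bands that did not overlap. With 2 counts in 6 uninjured libraries against 166 in 8 libraries of day 1, the ratio per library of equal depth was 64.6 (95% interval 17.6 to 538, exact, counting error only). Against the 699 counts of day 3 it was 262 (72.2 to 2170). From day 1 to day 3 Mbnl3 rose 4.34-fold (log2 fold change 2.12 ± 0.24 SE, edgeR adjusted p = 1.06e-07).

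Celf1 (ENSMUSG00000005506, chr2:90940382-91019497), a CUG-binding protein that opposes MBNL on many exons, rose stepwise. Its lowest, median and highest levels were 134, 162 and 187 CPM in uninjured muscle, 223, 236 and 264 CPM on day 1 and 323, 368 and 384 CPM on day 3. No 2 states overlapped. The rise was 1.48-fold on day 1 (log2 fold change 0.57 ± 0.06 SE, edgeR adjusted p = 1.11e-08) and 2.24-fold on day 3 (1.16 ± 0.06, edgeR adjusted p = 1.85e-14).

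Celf2 (ENSMUSG00000002107, chr2:6539694-7509563), its close relative, stood at similar levels throughout. Its range was 251 to 374 CPM in uninjured muscle, 220 to 286 CPM on day 1 and 274 to 316 CPM on day 3, and all 3 ranges overlapped. The fit called a 1.18-fold fall on day 1 (log2 fold change -0.24 ± 0.07 SE, edgeR adjusted p = 0.00601) and a 1.20-fold rise between the days (0.26 ± 0.07, edgeR adjusted p = 0.00273). Day 3 was not called against uninjured muscle (0.02 ± 0.07, edgeR adjusted p = 0.806). It stayed uncalled under 27 of 30 alternative fits, with values of -0.05 to 0.23 over all of them. The rise between the days was lost with length offsets and with limma on log2 TPM (adjusted p up to 0.234). The day 1 fall turned to 0.03 (edgeR adjusted p = 0.748) once the length of the expressed transcripts was taken into account. It was also lost without day 3 ZT4 replicate 1, uninjured ZT4 replicate 1 or uninjured ZT16 replicate 2, with values as small as -0.04 (edgeR adjusted p = 0.558). In all, the day 1 call was kept under 22 of the 30 alternative fits.

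Ptbp1 (ENSMUSG00000006498, chr10:79854427-79864771), a polypyrimidine tract-binding protein, peaked on day 1 and then dropped. In uninjured muscle it stood at 161, 138 and 162 CPM at ZT4 and at 156.5, 110.3 and 168 CPM at ZT16. On day 1 the values were 498, 507.5, 500.4 and 495 CPM at ZT4 and 449.8, 425, 509 and 495 CPM at ZT16. On day 3 they were 153, 159.9, 201.5 and 172.5 CPM at ZT4 and 164, 207, 154.3 and 148.5 CPM at ZT16. Every day 1 library was above every other library by more than the whole range of the other states. The rise on day 1 was 3.25-fold (log2 fold change 1.70 ± 0.10 SE, edgeR adjusted p = 5.54e-14), and the fall to day 3 was 2.85-fold (-1.51 ± 0.09, edgeR adjusted p = 3.5e-13). Day 3 against uninjured muscle differed by 0.19 ± 0.09 (edgeR adjusted p = 0.0611), and without both uninjured libraries that stood apart by 0.45 (adjusted p = 0.000383). It was called under 16 of the 30 alternatives, with values of 0.02 to 0.45 over all of them. Among single libraries left out, the call appeared without any 1 of uninjured ZT4 replicates 1 and 3, the 3 uninjured ZT16 libraries, day 1 ZT4 replicates 2 and 4, day 1 ZT16 replicate 1, day 3 ZT4 replicates 1 and 4 and day 3 ZT16 replicates 3 and 4.

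Ptbp2 (ENSMUSG00000028134, chr3:119718742-119784466), the paralog known from neurons, followed another course. Its lowest, median and highest levels were 37.2, 52.5 and 64.2 CPM in uninjured muscle, 43.5, 45.0 and 58.8 CPM on day 1 and 78.3, 90.6 and 100.4 CPM on day 3. Day 1 overlapped uninjured muscle (log2 fold change -0.13 ± 0.10 SE, edgeR adjusted p = 0.234), and day 3 lay above both. The rise on day 3 was 1.77-fold over uninjured muscle (0.82 ± 0.10, edgeR adjusted p = 7.01e-08) and 1.94-fold over day 1 (0.95 ± 0.09, edgeR adjusted p = 4.51e-09).

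Rbfox2 (ENSMUSG00000033565, chr15:77078990-77307004), which binds UGCAUG and promotes muscle exons during myoblast fusion, rose mainly on day 3. Its lowest, median and highest levels were 43.9, 68.1 and 73.4 CPM in uninjured muscle, 64.2, 77.2 and 84.6 CPM on day 1 and 118, 128.5 and 143 CPM on day 3. Day 3 was above all other libraries, while day 1 and uninjured muscle overlapped. The rise was 2.09-fold on day 3 (log2 fold change 1.07 ± 0.11 SE, edgeR adjusted p = 2.23e-09) and 1.23-fold on day 1 (0.29 ± 0.11, edgeR adjusted p = 0.0148). The day 1 value was 0.67 without both uninjured libraries that stood apart, and it was no longer called by limma on log2 TPM (0.18 to 0.20, adjusted p = 0.208 to 0.215).

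Rbm24 (ENSMUSG00000038132, chr13:46418434-46431095), a muscle-restricted factor required for sarcomere gene splicing, dropped on day 1 and rose steeply by day 3. In uninjured muscle it stood at 25.6, 17.9 and 7.05 CPM at ZT4 and at 24.5, 16.6 and 17.0 CPM at ZT16. On day 1 the values were 4.77, 8.68, 3.89 and 7.995 CPM at ZT4 and 4.55, 5.15, 5.97 and 9.42 CPM at ZT16. On day 3 they were 66.2, 53.96, 54.7 and 51.2 CPM at ZT4 and 56.2, 105.7, 59.0 and 72.7 CPM at ZT16. All day 3 libraries were above all others, and a single uninjured library, ZT4 replicate 3, fell within the day 1 range. The fall on day 1 was 2.88-fold (log2 fold change -1.53 ± 0.25 SE, edgeR adjusted p = 1.04e-05). The rise from day 1 to day 3 was 10.2-fold (3.35 ± 0.23, edgeR adjusted p = 1.09e-10), the widest change of the 10 genes apart from Mbnl3 against uninjured muscle, and day 3 was 3.54-fold above uninjured muscle (1.82 ± 0.23, edgeR adjusted p = 3.97e-07).

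Rbm38 (ENSMUSG00000027510, chr2:173020498-173034734), its close relative and a p53 target, rose at each step. In uninjured muscle it stood at 5.31, 2.85 and 5.13 CPM at ZT4 and at 5.88, 5.71 and 6.53 CPM at ZT16. On day 1 the range was 8.52 to 10.9 CPM and on day 3 it was 28.1 to 37.0 CPM. No states overlapped. The rise was 1.84-fold on day 1 (log2 fold change 0.88 ± 0.14 SE, edgeR adjusted p = 5.95e-06) and 6.02-fold on day 3 (2.59 ± 0.14, edgeR adjusted p = 2.92e-14).

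**Figure D2:**
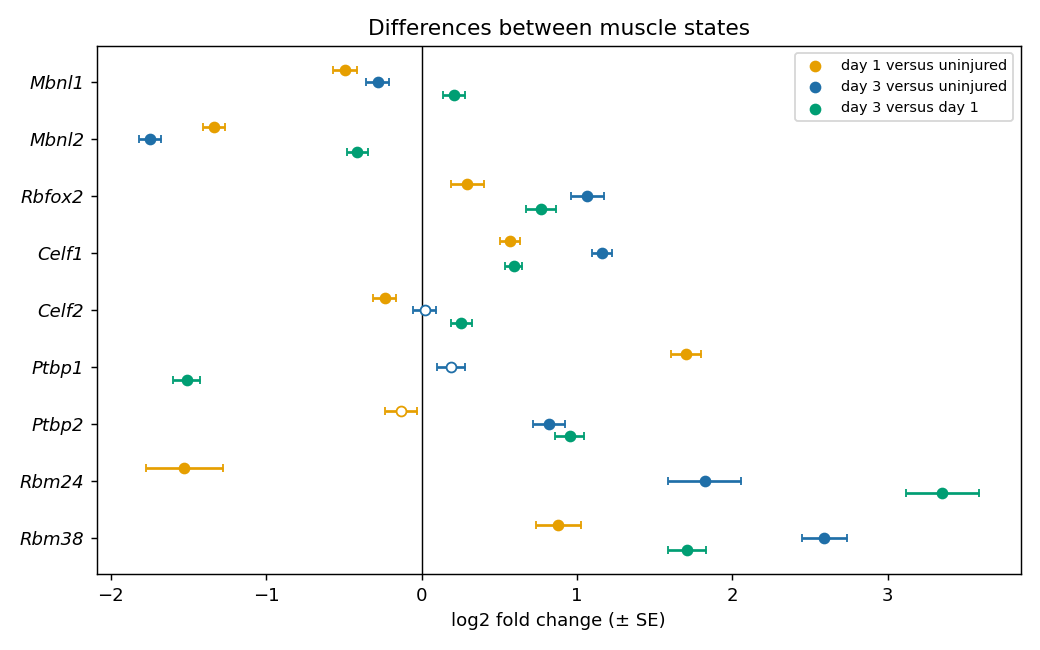
Log2 fold change (horizontal axis) of 9 regulators (vertical axis) in the 3 comparisons of states, with whiskers for the standard error; filled points were called by edgeR and open points were not. Mbnl3 is left out because its uninjured level was almost 0. Rbm24 spans the widest range, from -1.53 on day 1 against uninjured muscle to 3.35 from day 1 to day 3.

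Without both uninjured libraries that stood apart, each call of day 1 was kept in edgeR. The log2 fold changes of day 1 were then -1.23 for Mbnl2, -0.39 for Mbnl1, 6.09 for Mbnl3, 0.77 for Celf1, -0.25 for Celf2, 2.02 for Ptbp1, 0.67 for Rbfox2, -1.29 for Rbm24 and 1.05 for Rbm38. Those of day 3 were -1.70 for Mbnl2, -0.24 for Mbnl1, 8.15 for Mbnl3, 1.302 for Celf1, 0.93 for Ptbp2, 1.38 for Rbfox2, 2.00 for Rbm24 and 2.70 for Rbm38, all called. Ptbp2 on day 1 (0.04) and Celf2 on day 3 (-0.05) remained uncalled.

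Scaled by transcript length (TPM, a length-corrected share of all transcripts), the order of the genes also changed. In uninjured muscle Mbnl1 was highest at 176.6 ± 15.9 TPM (SD, n = 6), above Mbnl2 at 126.7 ± 10.7, Celf2 at 109.2 ± 25.6 and Ptbp1 at 92.0 ± 16.4. Mbnl2 overlapped Celf2 in range, and Celf2 overlapped Ptbp1. On day 1 Ptbp1 led at 287 ± 22.3 TPM (SD, n = 8), above Mbnl1 at 127 ± 6.58 with no overlap, and Mbnl2 ranked 5 of 10, at 46.1 ± 4.77 TPM. On day 3 Mbnl1 was again highest at 143 ± 24.3 TPM (SD, n = 8), but its range overlapped Celf2 at 108 ± 10.9, and Celf2, Ptbp1 at 92.6 ± 13.3 and Celf1 at 86.3 ± 12.0 overlapped one after the other. Ptbp2, Mbnl2, Rbm38, Rbm24 and Rbfox2 lay together on day 3, between 36.2 and 25.8 TPM on average, with overlapping neighbours. Mbnl3 had the lowest mean in each state, at 0.033, 2.01 and 7.68 TPM, and on day 1 its range overlapped that of Rbm24 (2.61 TPM).

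The genes whose log2 CPM followed each regulator most closely over the 22 libraries are given as a description, since all share the same libraries and 3 states. Mbnl2 was followed most closely by Plbd2 (Pearson r = 0.986), Zbtb20 and Gm26840. Ptbp1 was followed by Gprc5a (r = 0.982), Polr1b and Dimt1. Mbnl1 was followed by Tug1 (r = 0.955), Lrrc58 and Zfp266. Mbnl3 was followed by Krt18 (r = 0.984), Cenpe and Ehd4, and Celf1 by Ncapd2 (r = 0.981), Hmgb3 and Idh3a. Rbfox2 was followed by Snai1 (r = 0.956), Itga7 and Vasp, and Ptbp2 by Lypd6 (r = 0.961), Tcf12 and Sbno1. Rbm24 was followed by Sertad4 (r = 0.964), Pdlim7 and Zbtb18, and Rbm38 by Mlf2 (r = 0.98), Cgref1 and Ccdc141. Celf2, which moved least, had the weakest likeness, with Sept2 (r = 0.84), Enah and Lars2.

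The regulators are themselves spliced. The Mbnl1 and Mbnl2 genes each hold a 54-base exon that is known, in MBNL1, to favor location in the nucleus and to be repressed by MBNL proteins themselves. Both exons are printed to show how alike the paralogs are there, with the bases that differ in capitals, and 46 of 54 bases (85.2%) are the same. Sequences are from GENCODE M21 transcripts on GRCm38, 5′ to 3′ on the plus strand, at chr3:60614683-60614736 for Mbnl1 and chr14:120395712-120395765 for Mbnl2.
Mbnl1 54-base exon: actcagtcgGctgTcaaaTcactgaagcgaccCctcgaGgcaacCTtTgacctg
Mbnl2 54-base exon: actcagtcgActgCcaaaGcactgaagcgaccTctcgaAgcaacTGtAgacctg

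Inclusion of a cassette exon was estimated as the TPM of the transcripts that hold it over the TPM of those that hold or skip it. The log2 ratio of the holding to the skipping TPM was tested with limma over all 7228 cassette exons. Inclusion of the Mbnl1 54-base exon was 22.5%, 21.6% and 22.1% in uninjured muscle at ZT4 and 24.4%, 26.0% and 26.3% at ZT16. On day 1 it was 29.0%, 38.0%, 31.8% and 30.6% at ZT4 and 26.3%, 29.3%, 31.1% and 35.2% at ZT16. On day 3 it was 27.8%, 34.4%, 34.6% and 39.6% at ZT4 and 32.1%, 37.1%, 35.1% and 25.4% at ZT16. All but 1 library of each day lay above all uninjured libraries. The change in log2 ratio was 0.66 ± 0.22 SE on day 3 (limma adjusted p = 0.0317) and 0.55 ± 0.22 on day 1 (limma adjusted p = 0.0795, not called). The day 3 call had little margin: it was lost without any 1 of the 3 uninjured ZT4 libraries, uninjured ZT16 replicates 1 and 2, day 3 ZT4 replicate 4 and day 3 ZT16 replicates 2 and 3 (limma adjusted p of 0.0504 to 0.062). Without both uninjured libraries that stood apart it was 0.65 (limma adjusted p = 0.129). The 36-base exon of Mbnl1 (57.8%, 54.3% and 55.1% on average in uninjured, day 1 and day 3) and its 95-base exon (80.2%, 84.8% and 76.8%) were not called in any comparison of states.

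Over the 18 exons of the regulators other than Mbnl3 that were tested, 3 were called on day 1 and 3 on day 3, while 24.6% and 26.9% of all exons were called. Mbnl3 exons were not read against uninjured muscle because of its counts near 0. From day 1 to day 3, 4 of 21 exons were called, against 8.38% of all exons, namely a 55-base exon of Rbm38 of which more follows, a 30-base exon of Ptbp1 (6.20% to 0.623%, limma adjusted p = 0.0123) and the 36-base and 87-base exons of Mbnl3 (limma adjusted p = 0.0434 and 0.0413, at under 2 TPM on day 1). Inclusion of both Mbnl3 exons on day 3 was 13.1% to 38.9% at ZT4 and 0% in all 4 libraries at ZT16, and on day 1 it was 0% in 4 of 8 libraries, with a median of 2.83% and up to 84.2% and 79.4%, so no direction is given for them. Besides the 54-base exon, Mbnl1 had a 49-base form of an exon (chr3:60615725-60615773) whose inclusion averaged 47.8 ± 29.1% (SD, n = 6) in uninjured muscle and 10.9 ± 6.17% (SD, n = 8) on day 1 (log2 ratio change -2.78 ± 0.59 SE, limma adjusted p = 0.00174). Its uninjured libraries spread from 16.4% to 84.5% and overlapped day 1, with a mean of 26.4% at ZT4 and 69.2% at ZT16, against 9.91% and 12.0% on day 1. On day 3 it was 20.9 ± 15.2% (-1.95 ± 0.59, limma adjusted p = 0.0181), a call lost without uninjured ZT4 replicate 1 or uninjured ZT16 replicate 1 (limma adjusted p up to 0.0605). Celf1 had a 152-base exon outside the coding span with inclusion of 5.30 ± 5.95% in uninjured muscle and 15.9 ± 6.12% on day 1 (1.67 ± 0.46, limma adjusted p = 0.011, and 0.234 without both uninjured libraries that stood apart). The 53-base exon of Celf1 and the 144-base and 41-base exons of Celf2 were not called in any comparison of states. In Ptbp1, a 34-base exon (chr10:79862014-79862047), whose skipping is known to mark the transcript for decay, stood at 90.7%, 89.8% and 93.8% in the 3 states and was not called (-0.15 ± 0.33 SE on day 1, limma adjusted p = 0.794). With protein-coding transcripts alone, a setting chosen after seeing the data, the day 1 value was 1.60 (limma adjusted p = 1.63e-09) and that of day 3 against day 1 was -1.46. The 30-base exon of Ptbp1 also turned under that setting, from -2.14 to 1.89 between the days, so no direction can be given for either. The 78-base exon of Ptbp1 stood at 39.5%, 37.4% and 43.8% and was not called. The 1049-base exon of Mbnl1 averaged 26.7% in uninjured muscle and 40.8% on day 1 (limma adjusted p = 0.03). Uninjured libraries split by time, with 39.7% at ZT4 and 13.6% at ZT16, against 40.9% and 40.8% on day 1. The means were thus apart at ZT16 and alike at ZT4, a split by time that was not tested. The call was lost without both uninjured libraries that stood apart (limma adjusted p = 0.164) and without any 1 of day 1 ZT4 replicate 2, day 1 ZT16 replicate 4, uninjured ZT4 replicates 1 and 2 and uninjured ZT16 replicate 1 (limma adjusted p up to 0.0972).

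Rbm38 had a 55-base coding exon (chr2:173023327-173023381, plus strand) whose length is not a multiple of 3, so its skipping shifts the reading frame. It is printed as the exon of the regulators with the clearest change between the days.
Rbm38 55-base exon: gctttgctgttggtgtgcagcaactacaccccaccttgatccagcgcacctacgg
Its inclusion was 76.3%, 45.2%, 67.4% and 54.6% on day 1 at ZT4 and 75.4%, 90.7%, 64.6% and 82.5% at ZT16. On day 3 it was 93.3%, 100%, 99.93% and 88.5% at ZT4 and 88.8%, 95.8%, 76.3% and 72.8% at ZT16. Day 3 was higher on average, with 89.4 ± 10.2% against 69.6 ± 14.8% (SD, n = 8 each), although the ranges overlapped (log2 ratio change 2.27 ± 0.51 SE, limma adjusted p = 0.00615). In uninjured muscle inclusion was 83.9 ± 9.996% (SD, n = 6). The difference of day 3 from uninjured muscle (1.53 ± 0.55, limma adjusted p = 0.0439) had no margin. It was lost without any 1 of uninjured ZT4 replicates 2 and 3, uninjured ZT16 replicates 1 and 2, day 1 ZT4 replicates 3 and 4, day 1 ZT16 replicates 1 and 4, day 3 ZT4 replicates 2 and 3 and day 3 ZT16 replicates 1 and 2 (limma adjusted p up to 0.114).

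Transcript usage, the share of a gene's output made up by a transcript, was tested with edgeR for 63 transcripts of 8 regulators. On day 1 against uninjured muscle 7 transcripts of 5 regulators were called, against 6.29% of all 28280 transcripts, and on day 3 4 transcripts of 3 regulators, against 6.48%. From day 1 to day 3, 4 transcripts of 4 regulators were called, against 1.82%. The clearest was Mbnl2-201, which made up 7.03%, 2.81% and 3.20% of Mbnl2 in uninjured muscle at ZT4 and 2.14%, 4.01% and 3.30% at ZT16. Its share was 7.99% to 31.0% on day 1 and 12.2% to 46.4% on day 3, so that every library after injury was above every uninjured one. The remainder was Mbnl2-202, the only other Mbnl2 transcript of the tables. The change in log2 usage was 2.43 ± 0.29 SE on day 1 (edgeR adjusted p = 2.03e-07) and 2.92 ± 0.30 on day 3 (edgeR adjusted p = 4.75e-09), with no call between the days (0.49, edgeR adjusted p = 0.808). In expected counts, Mbnl2-202 fell from 2849 per uninjured library to 904 on day 1 and 644 on day 3, while Mbnl2-201 stood at 117, 226 and 242. Thus the drop of Mbnl2 lay in the counts assigned to Mbnl2-202. In GENCODE M21 both transcripts hold the 54-base exon. The pair differ there at their ends (starts at 120275669 and 120275721) and in a 36-base exon held by Mbnl2-202. The authors' annotation lists Mbnl2-201 at 4552 bases, as in M21, but Mbnl2-202 at 4498 bases against 4534 in M21. The sequence that separates the pair in the authors' annotation is thus not given in the sources used here. Whether these shares report on the 54-base exon cannot be told.

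Rbfox2-202 made up 46.6 ± 5.22% of Rbfox2 on day 3 (SD, n = 8) and was listed at 0 in 6 of 8 day 1 libraries, with 24.9% and 21.6% in the other two. In uninjured muscle it ranged from 0% to 29.5%. Its usage rose from day 1 to day 3 (log2 change 3.18 ± 0.70 SE, edgeR adjusted p = 0.00392). Rbfox2-203, the main form on day 1 at 78.1 ± 9.47%, stood at 46.5 ± 7.21% on day 3 and was not called. The authors' annotation lists Rbfox2-202 at 6564 bases against 3072 in M21, and Rbfox2-203 at 6573 bases in both. What separates this pair in the authors' annotation is not given in the sources used here. Their shares thus rest on how reads were divided between them. Mbnl1-201 fell from 9.82 ± 1.51% on day 1 to 3.09 ± 2.66% on day 3 (log2 change -1.85 ± 0.40 SE, edgeR adjusted p = 0.0011). Its uninjured libraries were split by time, with 7.33% to 11.2% at ZT4 and 1.31% to 3.73% at ZT16. The calls on Mbnl2-201, on Rbfox2-202 and on Mbnl1-201 were kept under every alternative run. Among the weaker calls of day 1, Mbnl1-203 fell from 10.8 ± 3.98% in uninjured muscle to 2.88 ± 1.80% on day 1 (edgeR adjusted p = 0.0203), Celf2-205 rose from 4.34 ± 4.33% to 13.0 ± 3.81% (edgeR adjusted p = 0.0156) and Celf2-221 from 7.27 ± 5.61% to 14.3 ± 2.53% (edgeR adjusted p = 0.0313). These 3 were lost without both uninjured libraries that stood apart (edgeR adjusted p of 0.136 to 0.147). They were also lost without single libraries. For Celf2-205 these were uninjured ZT4 replicate 2 and ZT16 replicate 1, and for Mbnl1-203 uninjured ZT16 replicate 1, day 1 ZT4 replicate 3 and day 1 ZT16 replicate 2. For Celf2-221 they were uninjured ZT4 replicates 1 and 3, uninjured ZT16 replicates 1 and 2 and replicate 3 of both day 1 groups. Mbnl1-215 rose from 1.08 ± 2.16% to 8.28 ± 5.53% on day 1 (edgeR adjusted p = 0.0219) and was 7.98 ± 3.56% on day 3 (edgeR adjusted p = 0.0237). Both calls were lost without uninjured ZT4 replicate 1, uninjured ZT16 replicate 1 or uninjured ZT16 replicate 2, and that of day 1 also without day 1 ZT16 replicate 4 (edgeR adjusted p of 0.0716 to 0.083). Rbfox2-204 was listed at 0 in all 8 day 1 libraries and at 0% to 21.96% in uninjured muscle (edgeR adjusted p = 0.0352). That call was lost without any 1 of 9 libraries, which were uninjured ZT4 replicate 2, uninjured ZT16 replicates 1 and 2, day 1 ZT4 replicates 1, 2 and 4 and day 1 ZT16 replicates 1, 3 and 4, with edgeR adjusted p up to 1.0. It was also lost without both libraries that stood apart (edgeR adjusted p = 0.0706). The other transcripts called, Mbnl1-218, Celf1-205, Celf1-208 and Ptbp1-206, averaged under 10% of their gene in each of the 6 groups.

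**Figure D3:**
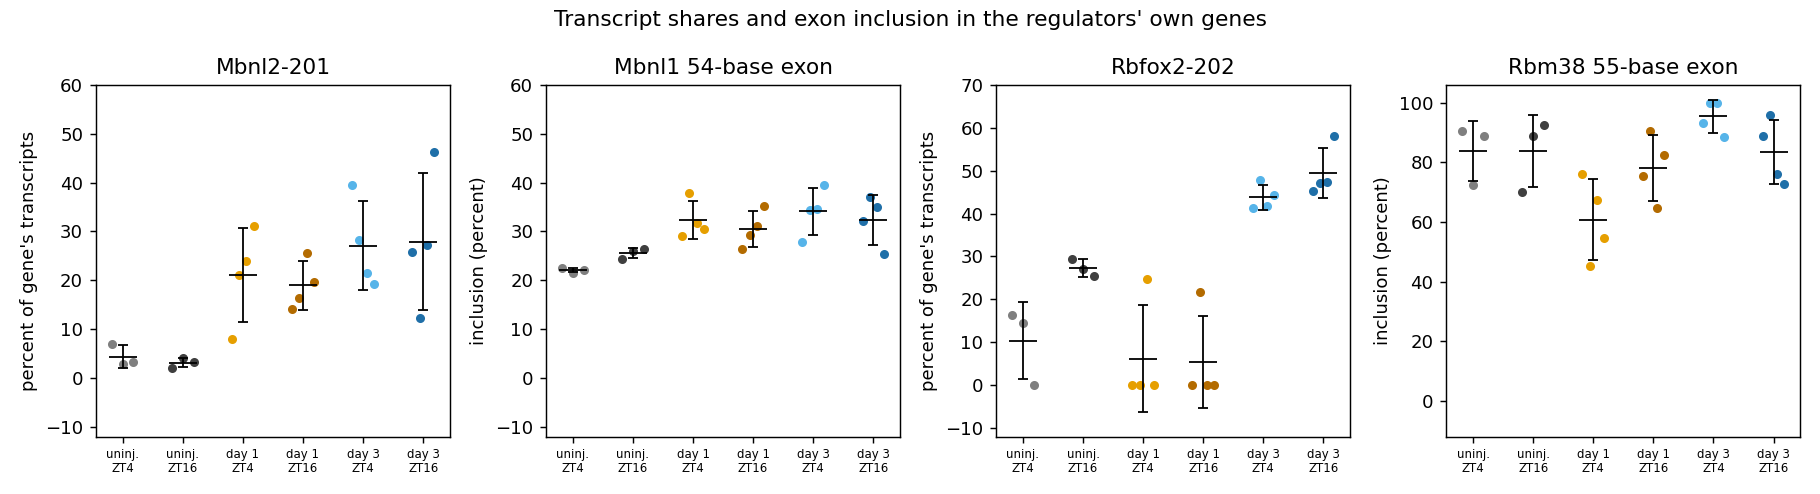
Share of the gene's transcripts (percent) for Mbnl2-201 and Rbfox2-202, and inclusion (percent) of the Mbnl1 54-base and Rbm38 55-base exons, in each library by state and zeitgeber time. Points are libraries, long bars are group means and whiskers are the SD. Mbnl2-201 was at 7.03% or less in uninjured libraries and at 7.99% or more after injury, and Rbfox2-202 was at 41.3% or more on day 3.

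Exons in 30 genes known to be spliced by these proteins were then read. The list was written with earlier results of these data known, and 17 of the genes had 78 cassette exons that could be tested. On day 1 against uninjured muscle 23 of the 78 were called, in 13 genes, against the 24.6% of all exons given above. On day 3 against uninjured muscle 26 were called in 12 genes, against 26.9%, which is also near the background. From day 1 to day 3, 31 were called in 12 genes, against 8.38%. Exons of 1 gene share transcripts and are not independent. A change of 10 points or more was seen in 33 called exons of 15 genes, Fn1 among them. The share of all exons with such a change is not given here.

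Exons of the tropomyosins, which stabilize actin filaments, changed on day 1, when Ptbp1 was at its peak. Tropomyosin exon pairs are known targets of PTB, but a link between Ptbp1 levels and these exons was not tested. In Tpm2 the 3′ exon of a pair of 76-base exons (chr4:43518644-43518719, minus strand) stood at 52.3 ± 6.52% in uninjured muscle (SD, n = 6), 28.2 ± 6.06% on day 1 and 51.8 ± 3.15% on day 3 (SD, n = 8 each). Its 5′ partner (chr4:43519003-43519078) made up nearly all of the rest, at 47.7%, 71.3% and 48.2%. Day 1 overlapped neither other state, and the change in the 3′ exon was -1.46 ± 0.25 SE in log2 ratio on day 1 (limma adjusted p = 0.00025) and 1.44 ± 0.23 back to day 3 (limma adjusted p = 0.000293). In Tpm1 the 5′ exon of a 76-base pair (chr9:67032466-67032541, minus strand) stood at 0.479% to 1.90% in uninjured muscle, 13.96% to 26.2% on day 1 and 10.3% to 24.2% on day 3. That exon rose after injury with no overlap (4.36 ± 0.27 SE on day 1, limma adjusted p = 1.67e-09, and 3.77 ± 0.27 on day 3, limma adjusted p = 8.5e-09) and was still above the whole uninjured range on day 3.

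The 24-base exon of Mef2a (chr7:67244521-67244544), which encodes an acidic stretch of this muscle transcription factor, fell from 65.0 ± 4.46% in uninjured muscle to 33.98 ± 9.41% on day 1 (log2 ratio change -1.77 ± 0.24 SE, limma adjusted p = 2.77e-05). It was at 58.0 ± 6.32% on day 3 (limma adjusted p = 0.000262 against day 1, with overlap, and 0.287 against uninjured muscle). The 113-base exon of Capzb (chr4:139288861-139288973), an actin-capping protein, fell from 51.4 ± 3.65% to 22.2 ± 3.31% on day 1 (-1.90 ± 0.23, limma adjusted p = 6.73e-06) and stood at 36.4 ± 5.38% on day 3, with no overlap between states. The difference of day 3 from uninjured muscle (-0.89 ± 0.23, limma adjusted p = 0.00649) was lost without both uninjured libraries that stood apart (limma adjusted p = 0.0609). The 123-base exon of Nfix (chr8:84723728-84723850), a known MBNL target in a factor that drives the fetal program of muscle, rose from 36.9 ± 3.17% to 56.9 ± 12.0% on day 1 and 62.9 ± 7.12% on day 3. Its day 3 change was 1.52 ± 0.33 (limma adjusted p = 0.00178), while the day 1 change of 1.18 ± 0.33 (limma adjusted p = 0.0128) was lost without both uninjured libraries that stood apart (limma adjusted p = 0.0617). The Mef2a exon and the 3′ exon of Tpm2 were thus lowest on day 1 and overlapped the uninjured range on day 3, whereas the Nfix exon and the 5′ exon of Tpm1 did not overlap it.

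Other exons changed between day 1 and day 3. In Tnnt3, fast troponin T, the 39-base exon (chr7:142507750-142507788) was at 3.31% or less in uninjured muscle, at 7.13% or less on day 1 and at 51.5% to 71.0% on day 3 (log2 ratio change 6.58 ± 0.56 SE from day 1 to day 3, limma adjusted p = 9.66e-08). The 12-base exon of Tnnt3 (chr7:142505288-142505299) went the other way, from 70.6 ± 17.6% on day 1 to 12.4 ± 7.61% on day 3 (limma adjusted p = 1.54e-06). The 42-base exon of Atp2a1 (chr7:126446545-126446586), the sarcoplasmic calcium pump and a known MBNL target, fell from 88.9 ± 4.31% on day 1 to 71.3 ± 4.37% on day 3 (-1.63 ± 0.32, limma adjusted p = 0.00175). The 273-base exon of Fn1 (chr1:71613763-71614035), the extra domain B of fibronectin, rose from 0.641 ± 0.928% on day 1 to 20.8 ± 8.88% on day 3 (4.11 ± 0.35, limma adjusted p = 9.66e-08). Fn1 was at 2.84 TPM in uninjured muscle, too low to read this exon there. The levels of these genes moved too: of the 30 genes, 21 rose and 6 fell from day 1 to day 3 in total counts (median log2 fold change 0.88, against -0.02 for all genes).

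**Figure D4:**
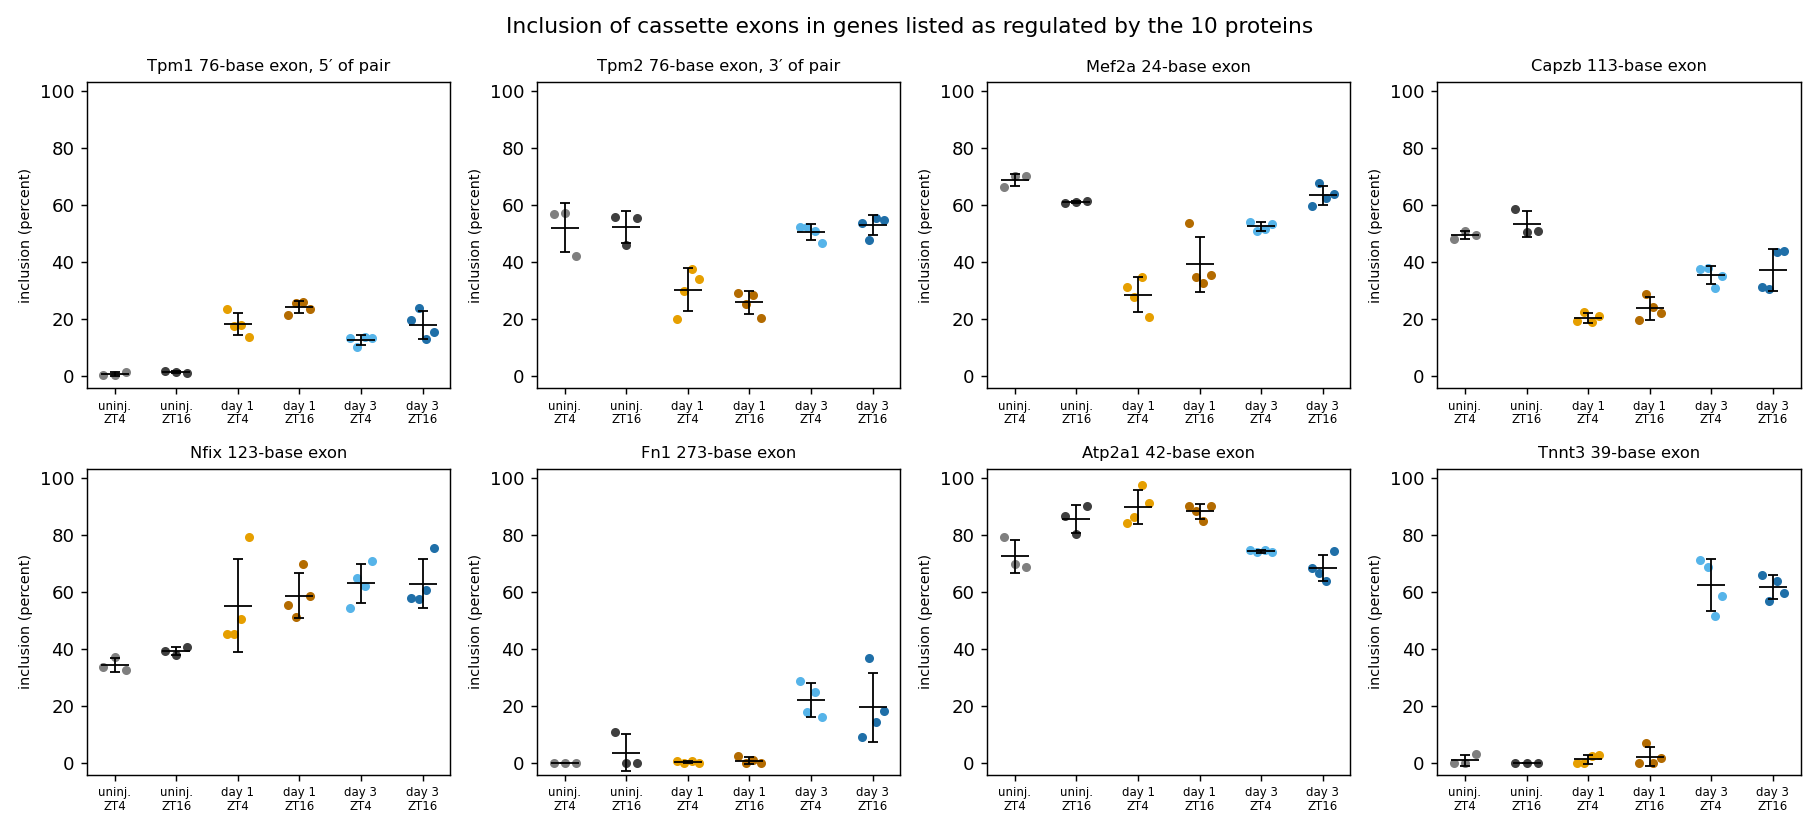
Inclusion (vertical axis, percent) of 8 exons in genes listed as spliced by the regulators, in each library by state and zeitgeber time (horizontal axis). Points are libraries, long bars are group means and whiskers are the SD. The Tpm2 (3′) and Mef2a exons are lowest on day 1, and the Tnnt3 39-base exon is at 7.13% or less before day 3 and at 51.5% or more on day 3.

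Markers of cell state and of other cells moved with these changes, and their part in the results was not tested. In bulk samples fewer cells of a type and less RNA per cell cannot be told apart. All 9 muscle stem cell markers were present in all groups, and their sum ran from 6447 to 9662 CPM in uninjured muscle, 3678 to 4810 on day 1 and 2999 to 3505 on day 3. The 4 markers of differentiating muscle cells (Myog, Mymk, Myh3 and Actc1) summed to 143.7 to 704 CPM, 4.41 to 31.0 and 1651 to 3557, which is lowest on day 1 and highest on day 3, in the same order as Rbm24. The 6 myofiber markers summed to 434 to 1086 CPM, 104 to 716 and 742 to 1974. Of these, 3 rose and 2 fell on day 3 against uninjured muscle, and 4 rose and 2 fell between the days. Whether this bears on the Tnnt3 and Atp2a1 exons was not tested. The 8 macrophage markers summed to 16.6 to 86.1 CPM, 1213 to 3994 and 235 to 829.2, and all 8 rose on day 3 against uninjured muscle. Ptbp1 was likewise highest on day 1, while its day 3 range of 148.5 to 207.1 CPM overlapped its uninjured range of 110.3 to 167.6 CPM. The 6 neutrophil markers reached 3.71, 308 and 16.4 CPM at most, with Retnlg at 0 in all day 3 libraries. The 6 fibro-adipogenic markers ran from 2370 to 3391 CPM, 499 to 784 and 1491 to 3325, the 5 endothelial markers from 94.2 to 171, 29.0 to 66.6 and 9.92 to 18.7, and the 4 mural markers from 361 to 1186, 310.3 to 377 and 238 to 403. None of these lists but the neutrophil one had a gene at 0 in a whole group. The sums did not always follow most of their members. On day 3 against uninjured muscle 5 fibro-adipogenic markers rose and 1 fell (median log2 fold change 2.20), while their mean sum was lower. On day 1 against uninjured muscle 1 endothelial marker rose, 1 fell and 3 were not called (median 0.44), while their mean sum was lower.

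The other splicing factors of the cells were read from 3 lists. Of 23 hnRNP genes, which encode abundant nuclear RNA-binding proteins, 15 rose and 4 fell on day 1 and 16 rose and 3 fell on day 3 against uninjured muscle (median log2 fold change 0.56 and 0.65). Hnrnpa1 rose from 209 ± 40.4 CPM (SD, n = 6) to 957 ± 73.9 on day 1 and 1251 ± 77.6 on day 3 (SD, n = 8 each), and Hnrnpab from 226 ± 29.2 to 1065 ± 64.2 and 858 ± 96.5 CPM. Of the 14 SR proteins tested of 15, which bind exon enhancers, 10 rose and 3 fell on day 1, and 1 rose and 8 fell from day 1 to day 3 (median 0.57 and -0.16). Srsf9 rose from 72.3 ± 10.1 to 161 ± 20.9 CPM on day 1 and fell to 102.6 ± 11.4 on day 3, while Srsf5 fell from 1445 ± 105.4 to 566 ± 55.3 and was at 575 ± 34.4 CPM on day 3. Among 27 tested of 36 other regulators of splicing and RNA stability, 9 rose and 10 fell on day 1 and 12 rose and 9 fell on day 3 (median -0.43 and 0.27). Tia1, a splicing activator, fell from 196.3 ± 20.7 to 72.4 ± 10.03 CPM on day 1, and Elavl1, which stabilizes messages, rose from 151 ± 24.7 to 313 ± 11.8 CPM. These shares are to be read against the 34.6% to 40.6% of all genes called in each direction against uninjured muscle, and the SR proteins between the days against 26.7% that rose and 28.7% that fell.

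No regulator was called between ZT16 and ZT4 in any state by edgeR. In uninjured muscle 3 had an unadjusted p below 0.05 and 17.7% of all genes were called, a share that was 2.82% without both libraries that stood apart. On day 1 and on day 3 it was 1 regulator each, with 0.0% of all genes called in both. DESeq2 called 2 regulators in uninjured muscle, Mbnl2 and Celf1, and 0 on either day after injury. Mbnl2 was 362 ± 34.8 CPM at ZT16 and 445 ± 47.0 at ZT4 in uninjured muscle (SD, n = 3 each; log2 fold change -0.30 ± 0.11 SE, edgeR adjusted p = 0.0592), and Celf1 was 148 and 177 CPM (-0.25 ± 0.09, edgeR adjusted p = 0.0624), in both cases with ranges that did not overlap. Mbnl3 on day 1 was 3.83 CPM at ZT16 and 1.87 at ZT4, without overlap (1.02 ± 0.36, edgeR adjusted p = 0.631). The difference of the time effects was also tested. On day 1 against uninjured muscle 0 regulators were called by edgeR (2 had an unadjusted p below 0.05, and DESeq2 called 0), with 7.46% of all genes called (0.808% without both libraries that stood apart). On day 3 against uninjured muscle 1 was called, with 12.8% of all genes (2.85% without both). That was Mbnl1, at 434 ± 53.2 CPM at ZT16 and 354 ± 56.4 at ZT4 in uninjured muscle but 296 ± 32.4 and 351 ± 10.7 on day 3 (difference of effects -0.54 ± 0.15 SE, edgeR adjusted p = 0.02). In edgeR it was lost without uninjured ZT16 replicate 1 (adjusted p = 0.0769), ZT4 replicate 2 (0.0622) or ZT4 replicate 3 (0.0549), and without both libraries that stood apart. No transcript and no exon of the regulators was called between the times in uninjured muscle (0.361% of all transcripts and 0.0553% of all exons were). An unadjusted p below 0.05 was found for 9 of 63 transcripts in edgeR and 7 of 18 exons in limma, and limma diffSplice called 2 transcripts. No exon of the listed target genes was called either in limma, with 6 of 78 at an unadjusted p below 0.05. Shares of all genes, transcripts and exons at that unadjusted p are not given here, and exons of 1 gene share transcripts. The counts at an unadjusted p are thus not read as an effect of time.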

How the data were processed

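RNA of fixed muscle stem cells was isolated with the miRNeasy FFPE kit, digested with proteinase K, and made into SMART-seq v4 libraries, per the labels' protocols. Trimmomatic 0.33, STAR 2.5.2, RSEM 1.3.3, DESeq2 and the build mm10 are named, with no role, per the submitters' processing notes. The authors deposited a table of isoforms per library, with estimated values per transcript: the expected count, the TPM and, in percent, the share of the gene (IsoPct), per the file headers. Library totals were 5965957 to 9751536 expected counts, which limits precision for low genes such as Mbnl3. All columns used belong to a labelled library. Read strand is not given in the sources used here, so reads of overlapping antisense genes may be included.

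Expected counts were summed per Ensembl gene, rounded, filtered (filterByExpr, minimum count 10 and minimum total 15), scaled by TMM and tested with edgeR 4.0.16 quasi-likelihood over all genes (R 4.3.3, common dispersion 0.0444). Transcript usage was tested with edgeR over all transcripts kept. Exon ratios were built from the TPM of GENCODE M21 transcripts, for exons at 2 TPM or more in at least 6 libraries and mean inclusion between 2% and 98%, and tested with limma 3.58.1 on log2 ratios with a pseudocount of 0.5 TPM. These ratios rest on RSEM's division of reads among transcripts, not on junction reads. Of 103732 transcripts in the tables, 101510 were in M21 and 91424 had the same length there. Alternatives used DESeq2 1.42.0, limma on log2 TPM, limma diffSplice, other filters and pseudocounts, effective length offsets, a replicate block, only the groups compared, protein-coding transcripts alone (added after seeing the data) and each library left out. The scripts were tested on simulated data. Python 3.11.15, pandas 2.3.3, scipy 1.17.1 and matplotlib 3.10.9 were used.

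Pairs of replicates differed beyond counting noise (chi-square per degree of freedom 4.02 to 74.2 over 30 pairs), so none was merged. The genes, lists and rules were chosen with earlier results of these data known. All 10 genes are named. Their transcripts are named at 10% or more of the gene in a group, their exons by a list of lengths or by a call with a change of 10 points or more, listed target exons by that change, and other splicing factors by adjusted p. A 30-base exon of Ptbp1, a 34-base exon of Ptbp1 and 4 low transcripts were named outside the rule after their values were seen.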

Additional observations from a re-analysis of the deposited data

Results flagged for a closer look

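In groups of 4 libraries, 107 sets of values were examined for a library far from the other 3, and 11 were found. Chance gives about 1 in 20. Mbnl1 stood at 344.8 CPM in day 3 ZT16 replicate 1, against 277 to 283 CPM in the other 3. Ptbp2 stood at 45.6 CPM in day 1 ZT4 replicate 2, against 43.5 to 43.7 CPM, and at 58.82 CPM in day 1 ZT16 replicate 2, against 44.6 to 46.5 CPM.

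Inclusion of the Celf1 152-base exon was 7.215% in day 1 ZT4 replicate 1, against 16.99% to 18.7% in the other 3. Inclusion of the Ptbp1 34-base exon was 92.56% in day 1 ZT4 replicate 3, against 87.5% to 88.3%, and 89.43% in day 3 ZT16 replicate 3, against 95.1% to 95.9%. Inclusion of the Ptbp1 30-base exon was 4.983% in day 3 ZT4 replicate 4 and 0% in the other 3.

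The share of Rbfox2-202 was 24.87% in day 1 ZT4 replicate 3 and 21.62% in day 1 ZT16 replicate 2, against 0% in the other 3 of each group. In day 3 ZT16 replicate 4 it was 58.02%, against 45.3% to 47.4%, and there Rbfox2-203 was at 30.13%, against 46.5% to 49.3%.

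The effect of time on Mbnl1 differed between day 3 and uninjured muscle, by -0.5374 ± 0.152 SE on the log2 scale (edgeR adjusted p = 0.02).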

How the results depend on the processing

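The calls of Mbnl2, Mbnl3, Celf1, Rbm24 and Rbm38 in all 3 comparisons of states were kept under each of the 30 alternatives. So were those of Ptbp1 on day 1 and between the days, and of Ptbp2 on day 3. The Mbnl3 calls against uninjured muscle are not independent of the count filter, which it passed through the injured groups only. Of the log2 fold changes of the 10 genes over all comparisons, 608 stayed on the same side of the threshold under settings other than leaving out a library, 20 lost a call, 10 gained one and 1 called value turned, namely Celf2 on day 1 with length offsets (0.03106). Without a single library these were 1732, 9, 19 and 0. Values near 0 that were called in neither fit changed sign more often, so that 47 of 639 and 57 of 1760 values had the other sign in all, the called one included. Removing the filter moved the median log2 fold change of the same 15084 genes from -0.13 to -0.01 on day 1 and from -0.03 to 0.10 on day 3 against uninjured muscle.

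Between ZT16 and ZT4 in uninjured muscle, 0 regulators were called by edgeR, 2 by DESeq2, 1 by limma on log2(TPM + 0.1) and 0 to 2 without a single library (2 without uninjured ZT4 replicate 1). The 1 regulator called for the time effect of day 3 against uninjured muscle became 0 with no filter, with length offsets, with limma on log2 TPM at either pseudocount (1 or 0.1), with only the groups compared, and without both uninjured libraries that stood apart, and was 0 to 1 without a single library. The counts of 9, 8 and 10 regulators between states were 8 to 9, 8 to 9 and 9 to 10 without a single library.

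Called transcripts on day 1 (7) were 15 with limma diffSplice, 2 without both libraries that stood apart and 1 to 7 without a single library, lowest without uninjured ZT16 replicate 1. On day 3 against uninjured muscle (4) they were 13 with diffSplice and 2 to 5 without a library (lowest again without uninjured ZT16 replicate 1), and between the days (4) they were 2 to 6 (lowest without any 1 of day 1 ZT4 replicates 3 and 4, day 3 ZT4 replicate 4 and day 3 ZT16 replicates 1 and 4). Between the times (0) diffSplice called 2.

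Called exons on day 1, Mbnl3 left out (3), were 7 with protein-coding transcripts alone, a setting chosen after seeing the data, 1 without both libraries that stood apart and 2 to 4 without a library. On day 3 against uninjured muscle (3) they were 0 with a pseudocount of 0.1 TPM and 1 to 3 without a library (lowest without day 3 ZT16 replicate 2, any uninjured ZT4 library or uninjured ZT16 replicate 2). Between the days (4) they were 2 with that pseudocount, 2 without both libraries and 2 to 5 without a library (lowest without any 1 of day 1 ZT4 replicates 2 and 4, day 1 ZT16 replicates 1, 2 and 4, day 3 ZT4 replicates 1 and 4 and day 3 ZT16 replicates 1, 2 and 4). Between the times (0) they were 1 with protein-coding transcripts alone and 0 to 2 without a library (2 without uninjured ZT16 replicate 3). Counting protein-coding transcripts alone turned the 34-base exon of Ptbp1 to 1.601 on day 1 and -1.464 between the days, and its 30-base exon to -2.169 and 1.89. The cause was not tested. Called exons of the target genes ranged over 16 to 27, 22 to 27 and 26 to 32 without a library.

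Replicate numbers in the titles are shared between groups. Over 51 pairs of libraries with the same number, deviations from the group means correlated from -0.0957 to 0.149, with 2 pairs above 0.1. These values do not show that the numbers pair libraries. The labels do not say whether they do, so pairing is not known. With the replicate block, 2 regulators were called between the times in uninjured muscle, called transcripts were 4 on day 1 and 2 between the days, and the Mbnl1 54-base exon on day 3 had a limma adjusted p of 0.0535.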
